A study of Mus musculus with 34 samples.

Results

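The coagulation and complement genes of hepatocytes are 36 genes that encode plasma proteins made mainly by liver parenchymal cells. They were chosen by name: the fibrinogen chains, the clotting proteases and cofactors, the anticoagulants, the fibrinolytic proteins, and the lectin, central and terminal components of complement. All 36 were on the array and passed the filter on dim probes, with 50 probes between them, and they are 36 of the 22724 genes tested. Each gene was read at its brightest probe as log2 of sample over reference, so that 0 is the level of the reference and a step of 1 is a doubling.

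RNA of mouse livers and liver tumors was labelled with Cy3 and hybridised to 34 Agilent arrays against a Cy5-labelled liver pool from C57BL/6 mice of both sexes. The groups were 3 control livers without a transgene, 7 tumors with a c-Myc transgene, 3 with a TGFα transgene and 3 with both (TGFα/Myc). A further 6 groups of 3 livers carried the same transgenes turned off by doxycycline for 4 or for 12 weeks (Myc off, TGFα off and TGFα/Myc off). Controls and tumors are listed without doxycycline. When off livers are set against either, the loss of the transgene and doxycycline itself cannot be told apart. The sources used here do not give strain, sex or age of the sample mice, or which promoter drives a transgene. The p-values measure the spread between these samples.

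The brightest Myc probe was read first as a check of the labels. It read 2.10 to 6.39 in the Myc tumors, 3.36 to 5.65 in the TGFα/Myc tumors and -1.36 to 0.25 in the controls. The library labelled TGFα tumor 1 read 3.33 for Myc, which goes against its label, and the Tgfa probe was not higher in it (-0.86) or in the TGFα/Myc tumors (-2.41 to -0.76) than in the controls (-1.26 to -0.45). Slide 5 stood apart, with the arrays of TGFα tumors 2 and 3 and of TGFα off 4 weeks replicate 1. In that order the median log2 signal of the 36 genes was 9.68, 6.29 and 7.74 in Cy3 and 7.27, 6.77 and 7.03 in Cy5. The other 31 arrays ran from 13.9 to 16.5 in Cy3 and from 15.5 to 17.3 in Cy5. On the 3 slide 5 arrays the 8 hepatocyte markers ranked at a median Cy3 percentile of 57.0 to 66.9 (91.9 to 99.5 elsewhere). The 8 intestine markers ranked at 71.8 to 98.2 (12.9 to 34.2 elsewhere). The slide 5 arrays therefore lack the defining signal of liver in both channels, and none is set against livers. They are part of the fit, with coefficients of their own, and TGFα tumors 2 and 3 differ widely from each other, so they add to the estimate of the spread in every comparison. Each count below is therefore also given from a fit of the other 31 arrays where the calls differ, an alternative added after seeing the data.

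**Figure D1:**
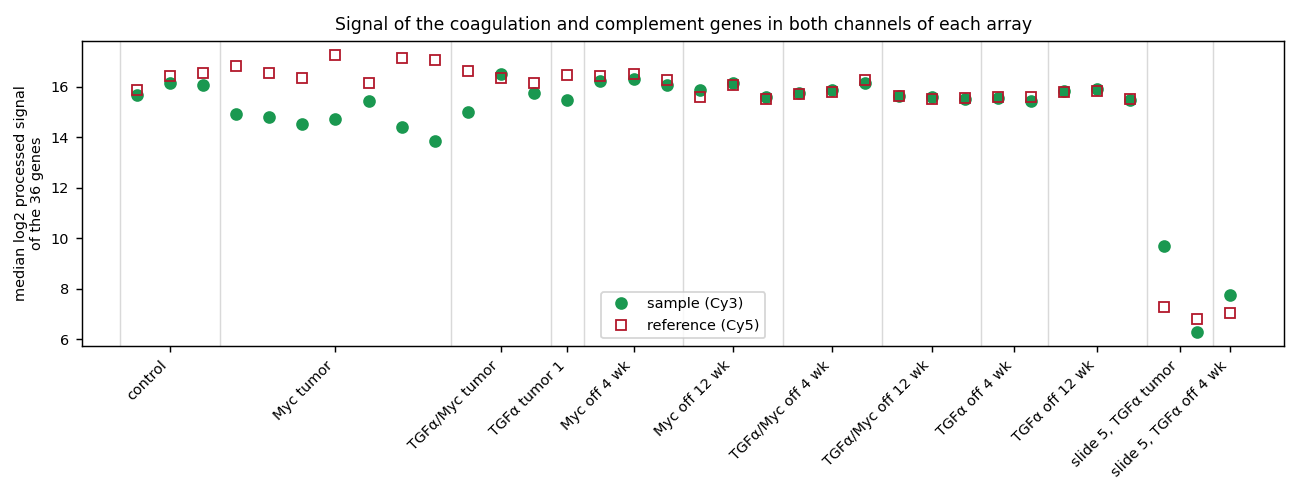
Median log2 processed signal (vertical axis) of the 36 genes in the sample channel (filled circles) and the reference channel (open squares) of each of the 34 arrays, by group. The 3 slide 5 arrays lie between 6.29 and 9.68 in both channels, and the Myc tumors lie at 13.9 to 15.4 in the sample channel.

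Hepatocytes release most clotting factors as inactive zymogens, which are cut in sequence until thrombin converts fibrinogen to fibrin, and they also release the inhibitors and the plasmin system that limit and dissolve the clot. Complement is a parallel cascade: lectins or antibodies bind a surface, C3 is cleaved, and the terminal components assemble into a pore. Transcription of these genes is known to rest on liver-enriched factors such as HNF1, HNF4 and C/EBP, and fibrinogen and C3 are also induced in the acute phase response, in part through STAT3.

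In Myc tumors 22 of the 36 genes (61.1%) were lower than in controls and none was higher. A gene was called at an adjusted p under 0.05 (limma with Benjamini-Hochberg adjustment over all genes tested), and over all genes 16.6% were called lower and 17.7% higher. The median difference of the 36 genes was -1.53 on the log2 scale, against -0.03 for all genes. In 13 of the 36 genes every Myc tumor lay below every control, which held for 12.6% of all genes. With slide 5 left out the differences are the same and 27 genes were called lower (3696 of the 22724 genes tested): the same 22 and Fgb, Fgg, F11, Kng1 and Cfi. Differences ran from -7.16 for C9 to 0.58 for Fga, the 1 gene with a higher mean in the tumors. In bulk tissue, fewer hepatocytes and less RNA per hepatocyte cannot be told apart.

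Another scanner, and scan days shared with no other group, were used for 6 of the 7 Myc tumors (2 to 7). The image software also used another background setting (code 7) for the 7 Myc tumors, the 3 Myc off 4 weeks livers and 1 control than for all other arrays (code 5), and normexp background correction with loess, applied alike to all arrays, called 24 genes lower. Within scan day 1, which held Myc tumor 1 and 1 control, the tumor was lower in 36 of 36 genes with a median difference of -1.27, and C8g was the 1 gene called. With 1 array on each side, that call takes its spread from the other groups and assumes that these arrays vary alike. With scan day as a block this comparison again rested on Myc tumor 1 and control 2 alone. Its median difference, -1.27, is therefore the same estimate and not a second check. Of the 36 genes, 23 had a probe that was never saturated, and 12 of them were called lower at that probe. Fgb, Fgg, F2, F10, Proc, Serpind1, Serpinf2, Hrg, Mbl2, Cfb, Cfi, Hc and C8g had none, so their ratios may be less exact. Without control 3 the number called was 14.

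**Figure D2:**
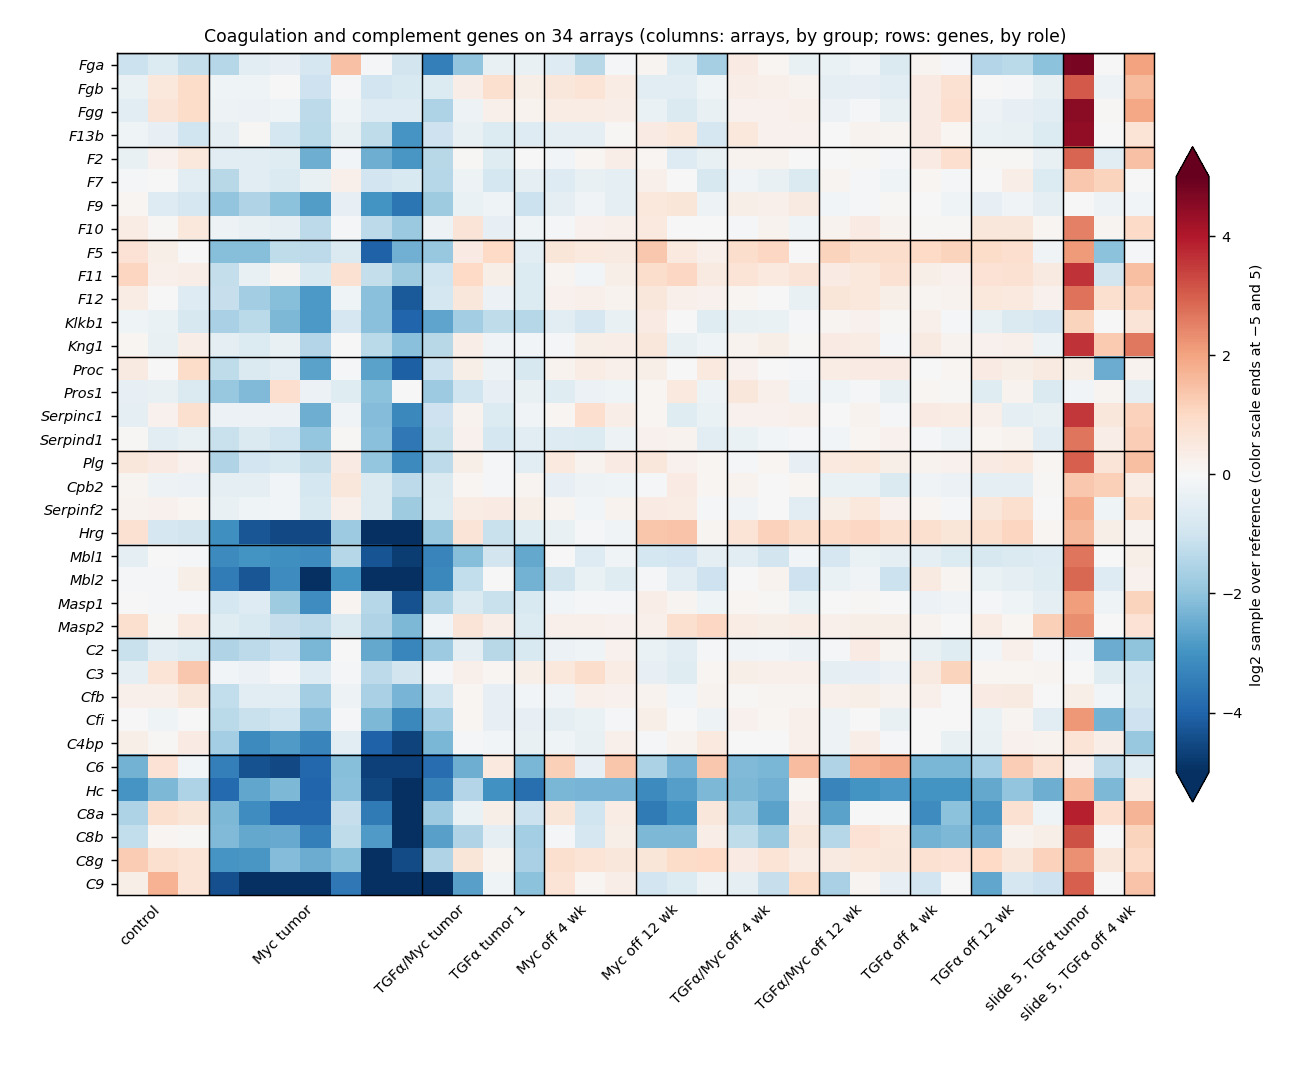
Log2 sample over reference (color, ending at -5 and 5) of the 36 genes (rows, lines between roles) on the 34 arrays (columns, lines between groups). The Myc tumor columns are mostly blue, with C9 down to -8.61 on an array where it was not well above background. The fibrinogen chains are at the top, and the slide 5 arrays are at the right.

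Of the 4 fibrinogen and factor XIII genes none was called in the Myc tumors in the fit of all 34 arrays, and Fgb and Fgg were called lower with slide 5 left out. Fga, Fgb and Fgg encode the 3 chains of fibrinogen and are neighbours on chromosome 3, and F13b encodes the carrier subunit of the fibrin-crosslinking factor XIII. Fga read -1.17, -1.05 and -0.69 in the controls and -1.42 to 1.48 (median -0.57) in the Myc tumors, a difference of 0.58 (SE 0.69, adjusted p = 0.553), or SE 0.52, adjusted p = 0.42 without slide 5. The groups overlapped, and Myc tumor 5 was the highest. Fgb read -0.31, 0.53 and 0.93 against -1.02 to 0.04 (median -0.23), a difference of -0.84 (SE 0.42, adjusted p = 0.126), or SE 0.28, adjusted p = 0.0233 without slide 5. Fgg read -0.54, 0.65 and 0.92 against -1.31 to -0.23 (median -0.31), a difference of -0.86 (SE 0.52, adjusted p = 0.217), or SE 0.31, adjusted p = 0.0327 without slide 5. Both overlapped between groups. Fgb was saturated in the Cy5 reference on 3 of 3 controls and 5 of 7 tumors, and Fgg on 2 and 4; a saturated spot stops at the scanner's ceiling, so these ratios are less exact. F13b had a difference of -0.48 (SE 0.59, adjusted p = 0.562). On slide 5, TGFα tumors 2 and 3 read 4.51 and 0.05 for Fgg and 4.77 and 0.00 for Fga. For Fga the log2 signals were faint: 2.88 (Cy3) and 3.22 (Cy5) on tumor 3 and 3.28 (Cy5) on tumor 2. Its 0.00 therefore does not show a level equal to the reference, and its 4.77 is not exact.

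Promoters of the 3 fibrinogen chains and of C9 are shown because Fga and C9 mark the ends of the range and the chains are neighbours. Each is the 250 bases before the RefSeq gene start in GRCm38.p6, 5′ to 3′ on the gene's strand. Capitals mark matches on either strand to the letters of HNF1 (GTTAAT), C/EBP (TTGCNNAA) and STAT (TTCNNNGAA). Fga lies at chr3:83025903-83026152 (plus strand), Fgb at chr3:83049864-83050113 (minus strand), Fgg at chr3:83007474-83007723 (plus strand) and C9 at chr15:6445096-6445345 (plus strand).
Fga: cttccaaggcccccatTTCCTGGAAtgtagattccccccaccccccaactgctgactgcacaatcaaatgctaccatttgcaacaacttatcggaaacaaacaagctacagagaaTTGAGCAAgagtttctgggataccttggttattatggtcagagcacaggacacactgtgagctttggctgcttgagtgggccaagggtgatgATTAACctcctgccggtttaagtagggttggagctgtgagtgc
Fgb: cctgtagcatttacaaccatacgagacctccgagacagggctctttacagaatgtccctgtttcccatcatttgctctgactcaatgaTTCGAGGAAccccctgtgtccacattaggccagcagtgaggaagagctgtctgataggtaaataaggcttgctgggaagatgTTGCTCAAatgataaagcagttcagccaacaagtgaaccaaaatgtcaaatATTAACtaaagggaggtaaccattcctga
Fgg: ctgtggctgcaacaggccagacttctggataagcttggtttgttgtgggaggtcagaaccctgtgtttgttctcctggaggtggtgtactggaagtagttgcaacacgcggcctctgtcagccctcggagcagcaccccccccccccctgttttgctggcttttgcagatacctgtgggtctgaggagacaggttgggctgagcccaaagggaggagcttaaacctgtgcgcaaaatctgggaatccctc
C9: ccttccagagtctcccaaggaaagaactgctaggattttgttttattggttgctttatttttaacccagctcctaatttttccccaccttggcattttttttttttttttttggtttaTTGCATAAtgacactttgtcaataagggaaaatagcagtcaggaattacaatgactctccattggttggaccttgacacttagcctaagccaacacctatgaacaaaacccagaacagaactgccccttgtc
The windows of Fga and Fgb each held 1 match to HNF1, C/EBP and STAT letters, that of Fgg held none, and that of C9 held 1 C/EBP match. Of the 36 genes, 29 had promoter entries, with 30 windows. HNF1 letters were in 23.3% of these windows and in 6.43% of all 32851 promoters, C/EBP letters in 26.7% against 9.56%, STAT letters in 20% against 7.02%, and HNF4 letters (CAAAGTCCA) in 0 against 0.384%. F13b, C4bp, Hc, C8a and C8b also held the HNF1 letters. A match describes the letters and is not a bound site.

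Of the vitamin K dependent proteases, which bind membranes through carboxylated glutamates, F2, F9 and F10 fell in the Myc tumors. F9 (factor IX, missing in hemophilia B) read -0.86, -0.64 and 0.09 in the controls and -3.60 to -0.41 (median -2.04) in the tumors, a difference of -1.72 (SE 0.43, adjusted p = 0.00321). Myc tumor 5 was the 1 tumor that reached the control range. F10, whose product activates prothrombin, read 0.05, 0.38 and 0.53 against -1.84 to -0.11 (median -0.44), a difference of -1.12 (SE 0.37, adjusted p = 0.0212), with no overlap. F2 (prothrombin) read -0.36, 0.20 and 0.52 against -2.92 to -0.15 (median -0.60), a difference of -1.49 (SE 0.56, adjusted p = 0.0416). The F2 tumors were spread wide and overlapped the controls. The F2 call was lost without any 1 control or without Myc tumor 4, 6 or 7, and the F10 call without control 1 or 3. Neither gene had a probe that was never saturated, so both sizes may not be exact. The log2 Cy5 signal of F2 was 19.0 to 19.8 on Myc tumors 4, 6 and 7 and 17.2 to 17.8 on the other Myc tumors. The part of saturation in this spread was not tested. F7, which starts the extrinsic pathway, had a difference of -0.43 (SE 0.29, adjusted p = 0.275).

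In the cofactor and contact group F5, F12 and Klkb1 fell. Klkb1 (plasma prekallikrein, which activates factor XII) read -0.80, -0.34 and -0.23 in the controls and -3.96 to -0.85 (median -2.09) in the tumors, a difference of -1.68 (SE 0.43, adjusted p = 0.00341). F5, the cofactor of factor Xa, read 0.00, 0.29 and 0.74 against -4.04 to -0.70 (median -2.11), a difference of -2.34 (SE 0.66, adjusted p = 0.00777). Neither gene overlapped between groups. F12, the zymogen that starts the contact system, read -0.66, 0.04 and 0.38 against -4.21 to -0.23 (median -2.09), a difference of -1.98 (SE 0.51, adjusted p = 0.00398), and Myc tumor 5 was the 1 tumor in the control range. F11 had a difference of -1.18 (SE 0.58, adjusted p = 0.123) and Kng1, the kininogen that carries bradykinin, one of -0.94 (SE 0.42, adjusted p = 0.0836). Both were called lower without slide 5, at an adjusted p = 0.0238 and 0.0472. A second Kng1 probe gave 0.37, so its probes disagreed in direction.

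Of the anticoagulants, Proc and Serpinc1 fell. Proc (protein C, which inactivates factors Va and VIIIa) read 0.02, 0.46 and 0.93 in the controls and -4.07 to -0.06 (median -1.26) in the tumors, a difference of -2.19 (SE 0.59, adjusted p = 0.00548), with no overlap. Serpinc1 (antithrombin) read -0.45, 0.23 and 0.81 against -3.23 to -0.17 (median -0.30), a difference of -1.47 (SE 0.57, adjusted p = 0.0494). The groups overlapped, a dimmer probe gave -0.63, and the call was lost without control 2 or 3 or without Myc tumor 4, 6 or 7. Serpinc1 was saturated in Cy5 on 2 of 3 controls and 4 of 7 tumors. In Cy3 it was saturated on 1 control and 2 tumors, so its size is not exact. Serpind1 (heparin cofactor II) read -0.58, -0.36 and 0.06 against -3.56 to 0.05 (median -1.12), a difference of -1.19 (SE 0.51, adjusted p = 0.0716). Pros1, the cofactor of protein C, read -2.20 to 0.86 (median -0.62) in the tumors and had a difference of -0.39 (SE 0.46, adjusted p = 0.544), against 0.24 at a second probe.

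Of the fibrinolysis genes, Hrg and Plg fell. Hrg (histidine-rich glycoprotein, which binds plasminogen and heparin) read -0.90, -0.86 and 0.76 in the controls and -5.64 to -1.80 (median -4.51) in the tumors, a difference of -3.88 (SE 0.61, adjusted p = 3.17e-05) or 14.7-fold, with no overlap. Its reference spot was saturated on 1 of 3 controls and 0 of 7 tumors. Plg (plasminogen) read 0.21, 0.42 and 0.56 against -3.19 to 0.39 (median -1.18), a difference of -1.69 (SE 0.49, adjusted p = 0.00853), and Myc tumor 5 was the highest tumor. Serpinf2, the plasmin inhibitor, read 0.08, 0.17 and 0.20 against -1.78 to 0.24 (median -0.38), a difference of -0.69 (SE 0.36, adjusted p = 0.139). Cpb2, which protects fibrin from plasmin, had a difference of -0.34 (SE 0.27, adjusted p = 0.345).

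All 4 lectin pathway genes fell. Mbl1 and Mbl2 encode the mannose-binding lectins, and Masp1 and Masp2 the proteases they carry. Mbl2 read -0.08, -0.06 and 0.29 in the controls and -7.36 to -3.00 (median -4.26) in the Myc tumors, a difference of -4.58 (SE 0.73, adjusted p = 3.69e-05). Mbl2 was saturated in Cy5 on 2 of 3 controls and 4 of 7 tumors and in Cy3 on 1 control, so its size is not exact. Mbl1 read -0.44, -0.10 and 0.01 against -4.74 to -1.42 (median -3.15), a difference of -3.09 (SE 0.53, adjusted p = 7.77e-05). Masp2, which cleaves C4 and C2, read 0.08, 0.48 and 0.79 against -2.26 to -0.61 (median -1.14), a difference of -1.63 (SE 0.36, adjusted p = 0.00102). No tumor overlapped the controls in these 3 genes. Masp1 had a difference of -1.69 (SE 0.58, adjusted p = 0.0267), and Myc tumor 5 read 0.14, above all controls. Of its 4 probes, 3 gave -1.74 to -1.52 and the other 0.24, and its call was lost without any 1 control or without Myc tumor 4.

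In the central group C3, Cfb and C4bp fell. C4bp (a regulator that helps to inactivate C4b) read 0.06, 0.31 and 0.39 in the controls and -4.63 to -0.53 (median -3.17) in the tumors, a difference of -3.14 (SE 0.55, adjusted p = 0.000114) without overlap. A dimmer C4bp probe gave -0.02, so its probes disagreed. Cfb, the protease of the alternative pathway convertase, read 0.25, 0.26 and 0.56 against -2.31 to -0.27 (median -1.23), a difference of -1.54 (SE 0.31, adjusted p = 0.000426), also without overlap. Cfb was saturated in Cy5 on 2 of 3 controls and 4 of 7 tumors and in Cy3 on 1 tumor, so its size is not exact. C3, on which the pathways meet, read -0.49, 0.67 and 1.35 against -1.30 to -0.08 (median -0.28), a difference of -1.01 (SE 0.30, adjusted p = 0.0098). C3 was saturated in Cy5 on 3 of 3 controls and 5 of 7 tumors, its second probe gave -1.02, and the call was lost without control 3. C2 had a difference of -0.96 (SE 0.47, adjusted p = 0.121) and Cfi, which cleaves C3b and C4b, one of -1.52 (SE 0.60, adjusted p = 0.0532). Cfi was called lower without slide 5 (adjusted p = 0.00761).

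Of the 6 terminal components C6, C8a, C8b, C8g and C9 fell, with the largest median difference of the roles, -3.32. These proteins assemble in order on C5b, and C9 polymerises to form the wall of the pore. C9 read 0.28, 0.70 and 1.72 in the controls and -8.61 to -3.56 (median -5.85) in the Myc tumors, a difference of -7.16 (SE 0.95, adjusted p = 4.94e-06) without overlap. C9 was well above background in 5 of the 7 tumors. It was not in tumors 3 and 7, which had the lowest values, -8.13 and -8.61, at log2 Cy3 signals of 4.41 and 4.63. The size of the C9 difference is therefore not exact. C8g, the small chain of C8, read 0.68, 0.82 and 1.26 against -5.36 to -2.14 (median -2.91), a difference of -4.13 (SE 0.52, adjusted p = 2.49e-06) or 17.5-fold, also without overlap. The C8g reference spot was saturated on 1 of 3 controls and 0 of 7 tumors. C6 read -2.35, -0.14 and 0.72 against -4.68 to -2.13 (median -4.34), a difference of -3.36 (SE 1.00, adjusted p = 0.0105), and its lowest control lay within the range of the tumors. C8a and C8b, the chains that reach into the membrane, had differences of -3.27 (SE 0.97, adjusted p = 0.0108) and -2.58 (SE 0.84, adjusted p = 0.0188). The calls of C6, C8a and C8b were each lost without control 2 or control 3. Hc, which encodes C5, had a difference of -1.22 (SE 0.66, adjusted p = 0.161).

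**Figure D3:**
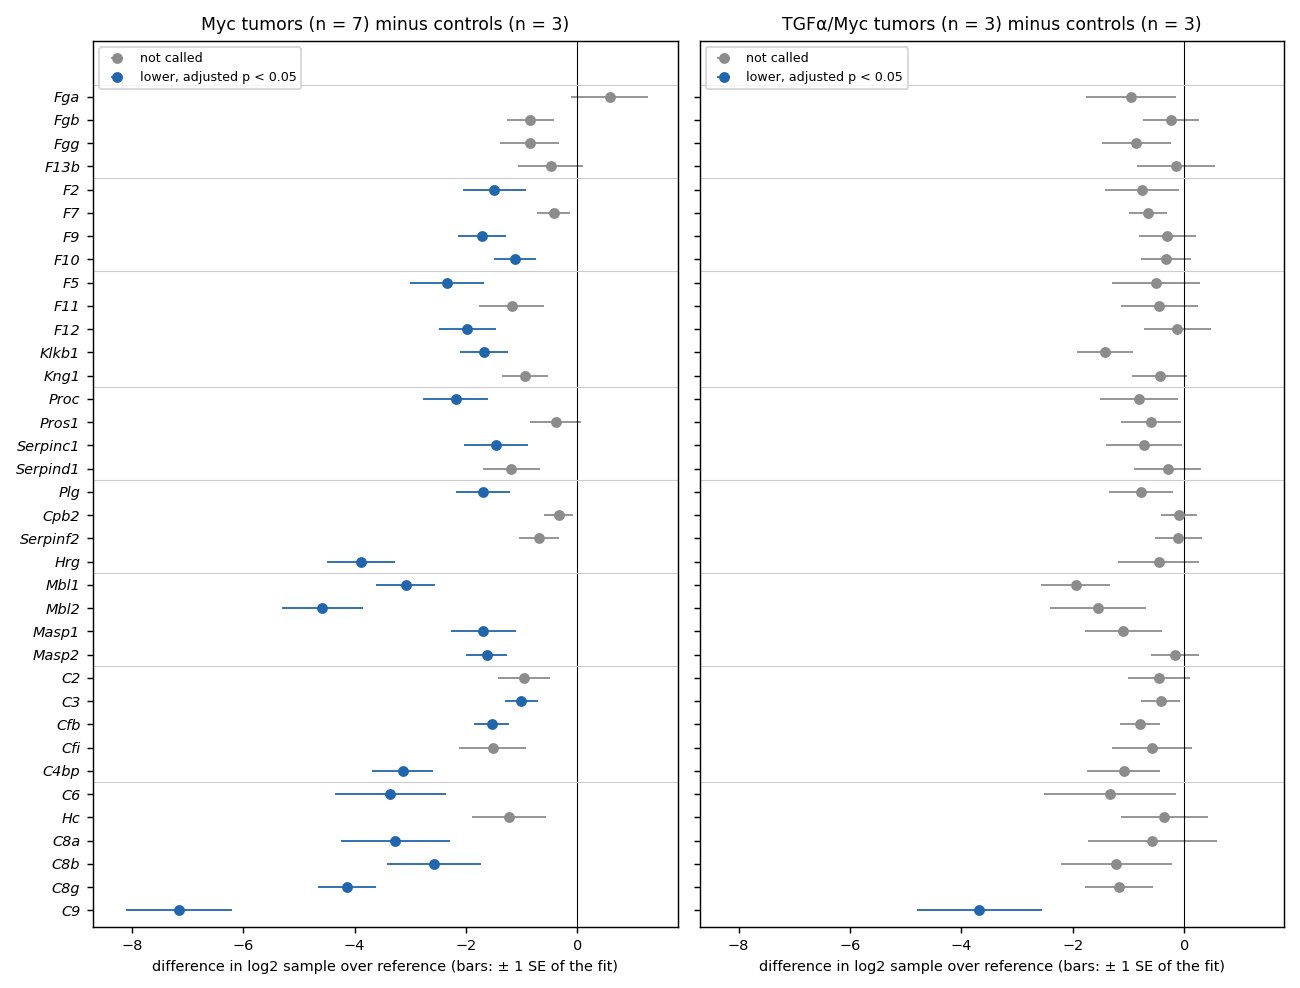
Difference in log2 sample over reference from controls (horizontal axis) of the 36 genes in Myc tumors (left) and TGFα/Myc tumors (right), with bars of 1 SE and blue for an adjusted p under 0.05. On the left 22 genes are blue, from C3 at -1.01 to C9 at -7.16, and on the right C9 at -3.68 is the 1 blue gene.

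The Myc tumors varied in their ratios. The median of the 36 genes was -3.23 in Myc tumor 7, -2.23 in tumor 4, -2.09 in tumor 6, -1.37 in tumor 1, -0.99 in tumor 3, -0.86 in tumor 2 and -0.23 in tumor 5. Myc tumor 5 was the highest of the 7 tumors for 32 of the 36 genes, and tumor 7 the lowest for 26. Saturation also differed between these arrays. In the Cy5 reference 13, 12, 12 and 12 of the 36 genes were saturated on tumors 1, 2, 3 and 5. On tumors 4, 6 and 7 it was 2, 0 and 0. In Cy3 it was 12 on tumor 5 and 0 to 4 on the other tumors. The part of saturation in the spread between tumors was not tested. Tumor 5 still read -3.56 for C9, -3.00 for Mbl2 and -2.14 for C8g, below all controls. Counts of cell type markers stand beside 17.7% of all genes called higher and 16.6% called lower. The 8 hepatocyte markers, all well above background on each of these arrays, had a summed Cy3 level (relative to the 75th percentile of the array) of 165.0 to 850.0 in the Myc tumors and 618 to 1131 in the controls, and 5 of 8 were called lower. Of 8 neutrophil markers 5 were called higher, with a sum of 2.45 to 125 against 3.00 to 4.77. Of 6 platelet markers 1 was called higher, which is not above the share of all genes, with 2.64 to 43.7 against 1.53 to 1.96. Of 8 Kupffer cell and macrophage markers 4 were called lower and 1 higher, the latter also not above that share. The Kupffer cell and macrophage sums ran from below to above the controls (22.5 to 118 against 47.4 to 76.8). Of 8 endothelial markers 4 were called lower (4.37 to 21.9 against 33.9 to 37.3). The part of these cell types in the differences was not tested.

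Other genes of the same systems were called in both directions in the Myc tumors. Of 26 other coagulation and fibrinolysis genes 7 rose and 4 fell, with a median difference of -0.01, beside 17.7% of all genes higher and 16.6% lower. Among those that rose were Anxa2 (a receptor for plasmin assembly, 3.40, SE 0.45), Plat (tissue plasminogen activator, 2.07, SE 0.29), Plaur (the urokinase receptor, 2.42, SE 0.36) and Thbs1 (thrombospondin, 4.26, SE 0.76). Those that fell were Proz at -2.29, F8 at -1.38, F3 (tissue factor) at -1.36 and Apoh at -1.68. Of 24 other complement genes 4 rose, Itgb2, C1qb, C1qc and Itgam, by 1.06 to 1.90, and 9 fell. The 4 of 26 coagulation genes that fell and the 4 of 24 complement genes that rose are near those shares of all genes. The complement genes that fell were led by Serping1 (C1 inhibitor, -2.10), Cd55 (-1.83), C1ra (-1.06), C1s1 (-1.50) and Colec11 (-1.74). Of 14 acute phase genes 5 rose and 2 fell (median -0.01), led by Hamp (hepcidin) at -4.74 and Saa3 at 3.52. The 2 of 14 that fell are not above the 16.6% of all genes called lower. Of 15 other plasma protein genes of hepatocytes 10 fell and none rose (median -1.50), led by Apoc3 at -4.07 and Serpina3k at -4.63. Of 12 hepatocyte transcription factors 9 fell and none rose (median -1.07), led by Onecut1 (HNF6) at -3.58 and Nr5a2 at -1.53.

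In TGFα/Myc tumors 1 of the 36 genes, C9, was called lower than in controls, against 3.41% of all genes. All 36 means were below those of the controls, with a median difference of -0.59 (-0.04 for all genes). An unadjusted limma p under 0.05 was reached by 4 of the 36 genes and by 5088 of all 22724. C9 read -5.38, -2.72 and -0.22 in TGFα/Myc tumors 1, 2 and 3, a difference of -3.68 (SE 1.13, adjusted p = 0.0455), and the call was lost without any 1 control or without tumor 1 or 2. With slide 5 left out Mbl1 was called as well, at -1.95 (adjusted p = 0.0337). Tumor 1 had a median of -1.53 over the 36 genes, and tumors 2 and 3 had 0.08 and -0.27. Within scan day 7, which held tumors 1 and 2 and 1 control, 31 of 36 genes were lower with a median of -0.78, and none was called; the 1 control there has no spread of its own. Klkb1 read -2.62, -1.74 and -1.26, all below the controls, a difference of -1.42 (SE 0.50, adjusted p = 0.0875). Fga read -3.43, -1.97 and -0.38, a difference of -0.95 (SE 0.81, adjusted p = 0.541).

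Against Myc tumors 10 of the 36 genes (27.8%) were higher in TGFα/Myc tumors and none lower, where 12.2% of all genes were called higher. C8g read -1.50, 0.61 and 0.15 in TGFα/Myc tumors 1, 2 and 3, a difference of 2.97 (SE 0.52, adjusted p = 0.000206). Masp2 read -0.14, 0.66 and 0.33, a difference of 1.47 (SE 0.36, adjusted p = 0.00388). In both genes each TGFα/Myc tumor lay above every Myc tumor. Hrg read -1.89, 0.65 and -1.12, a difference of 3.42 (SE 0.61, adjusted p = 0.000253), and Mbl2 read -3.22, -1.23 and -0.04, a difference of 3.03 (SE 0.73, adjusted p = 0.00343). Tumor 1 overlapped the Myc tumors in both. C4bp read -2.29, -0.06 and -0.15, a difference of 2.06 (SE 0.55, adjusted p = 0.00776), and C9 had a difference of 3.48 (SE 0.95, adjusted p = 0.00849). F9, F5, F12 and C8a were also called. With slide 5 left out the same 10 genes were called higher and Fga was called lower, at -1.53 (adjusted p = 0.033). The count was 22 with normexp background correction and loess, 6 at unsaturated probes, 5 without TGFα/Myc tumor 2 and 6 without tumor 3. No scan day held both groups, the background setting differed between them, and with scan day as a block none of the 36 genes was called and the median difference was 0.55, against 0.83 without it.

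The library labelled TGFα tumor 1 was a single array and has no test. It read -2.07 for C9, -2.54 for Mbl1, -2.38 for Mbl2, -1.61 for C8g and -1.41 for Klkb1, each below every control. The median of the 36 genes was -0.58, and its neutrophil markers summed to 112.

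**Figure D4:**
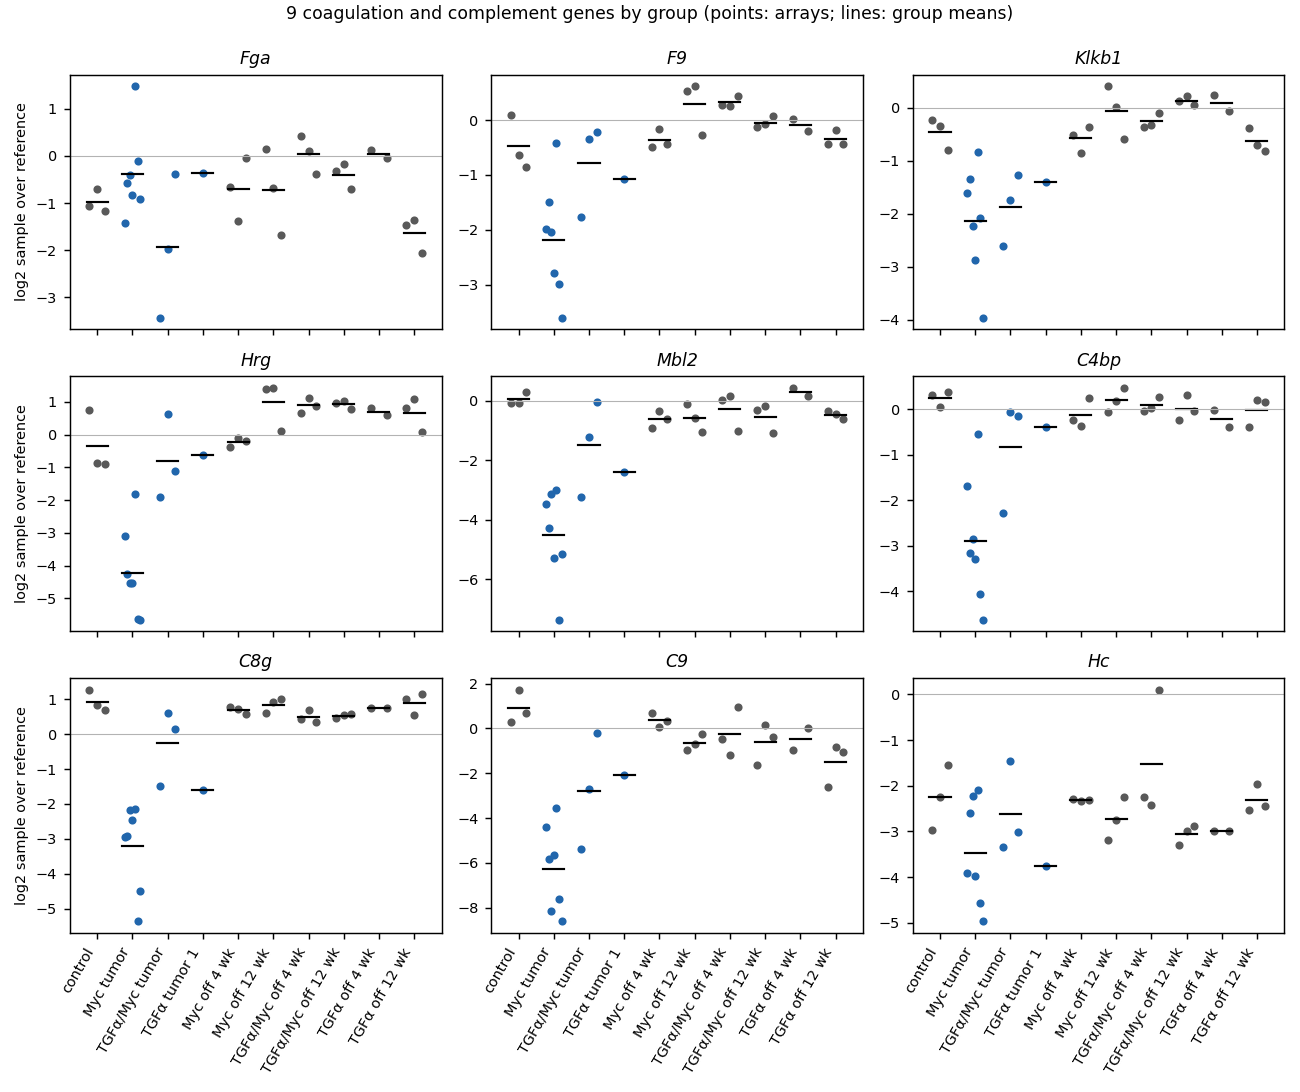
Log2 sample over reference (vertical axis) of 9 of the 36 genes by group (horizontal axis), with points for arrays, lines for group means and tumors in blue. C9, C8g, Mbl2 and Hrg have their lowest means in the Myc tumors, and the Hc panel shows 1 liver at 0.10 above the other points, with the slide 5 arrays left out.

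In livers with Myc turned off by doxycycline, many of the genes were higher than in Myc tumors, which are listed without it. At 4 weeks 23 of 36 (63.9%) were higher, against 15.6% of all genes, and at 12 weeks 20 of 36 (55.6%), against 16.9%. None was lower at either time, and the median differences were 1.53 and 1.41. C9 read 0.08, 0.32 and 0.68 at 4 weeks and -0.96, -0.67 and -0.26 at 12 weeks, differences from the tumors of 6.61 (SE 0.95, adjusted p = 1.72e-05) and 5.62 (SE 0.95, adjusted p = 7.4e-05). C8g read 0.57, 0.70 and 0.79 and then 0.59, 0.90 and 0.99, differences of 3.90 (SE 0.52, adjusted p = 7.56e-06) and 4.04 (SE 0.52, adjusted p = 3.01e-06). Hrg read -0.39, -0.18 and -0.11 and then 0.12, 1.40 and 1.43, differences of 3.98 (SE 0.61, adjusted p = 3.23e-05) and 5.19 (SE 0.61, adjusted p = 1.15e-06). None of these livers overlapped the tumors in C9, C8g or Hrg. Within scan day 1, which held the 3 livers of 4 weeks and Myc tumor 1, 36 of 36 genes were higher in the livers (median 1.31) and 4 were called: C9 at 4.76, C8g at 3.64, Mbl1 at 2.91 and Cfb at 1.33. The single tumor there has no spread of its own, so these calls assume that it varies like the other groups. At 12 weeks no scan day held both groups, and with scan day as a block none was called and the median difference was 1.23. With slide 5 left out 27 genes were called at 4 weeks and 22 at 12 weeks, among them all those called before.

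In TGFα/Myc off livers Klkb1 was the 1 gene called higher than in the TGFα/Myc tumors at each time, where 8.81% of all genes were called higher at 4 weeks and 8.12% at 12 weeks. It read -0.36, -0.32 and -0.10 at 4 weeks and 0.04, 0.13 and 0.22 at 12 weeks. The differences were 1.61 (SE 0.50, adjusted p = 0.0271) and 2.01 (SE 0.50, adjusted p = 0.00848), and no liver overlapped the tumors. The call was lost at 4 weeks without any 1 of the 3 livers or without TGFα/Myc tumor 1, and at 12 weeks without tumor 1. The number called was 2 at 4 weeks and 3 at 12 weeks without tumor 2, and 4 at either time without tumor 3. With slide 5 left out Fga (1.97, adjusted p = 0.0283) and Mbl1 (1.58, adjusted p = 0.0498) were also called at 4 weeks.

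Against controls none of the 36 genes was called by limma in any of the 6 groups of off livers. The share of all genes called in either direction was 0.0352% for Myc off 4 weeks, 0.0308% for Myc off 12 weeks, 2.84% for TGFα/Myc off 4 weeks, 0.163% for TGFα/Myc off 12 weeks, 0.572% for TGFα off 4 weeks and 0.18% for TGFα off 12 weeks. At an unadjusted p under 0.05 the count of these genes was 0, 1, 0, 1, 0 and 1 in that order. Over all 22724 genes (22723 for the first) it was 1418, 2434, 4197, 2615, 2451 and 2561. A gene that was not called may still differ. In TGFα off 12 weeks livers C9 read -2.60, -1.03 and -0.85, a difference of -2.39 (SE 1.13, adjusted p = 0.423). In the 2 TGFα off 4 weeks livers outside slide 5 C8a read -3.13 and -2.04, a difference of -2.54 (SE 1.29, adjusted p = 0.491). Between 12 and 4 weeks of TGFα/Myc off none was called by limma, against 1.71% of all genes. At an unadjusted p under 0.05 the count was 0, against 3481 of all 22724 genes. On slide 5, TGFα tumors 2 and 3 against TGFα off 4 weeks replicate 1 also gave no call by limma (2 at an unadjusted p under 0.05), against 0.85% of all genes, and 2 were called without tumor 3. TGFα off 4 weeks replicate 1 is a single array, and without tumor 3 so is the tumor side, so the spread then comes from the other groups. All of these arrays lack the defining signal of liver, as given above. For F13b, Klkb1, Mbl1, C8a, C8b and C9 the dimmer side of this comparison was below background.

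Part of the spread between livers lay in C6, C8a and C8b. Female mice are known for low activity of the terminal pathway, and a sex score was taken on each array as the mean log2 value of Y-linked genes less that of Xist. With the score as a covariate, C6, C8a and C8b of the 36 genes had a slope that passed the test, against 1.76% of all genes. C6 rose per unit of the score by 0.23 (SE 0.03, adjusted p = 0.000155), C8a by 0.19 (SE 0.04, adjusted p = 0.00781) and C8b by 0.15 (SE 0.04, adjusted p = 0.031). The 20 livers outside slide 5 had scores of -7.05 to -3.00 in 10 and 4.27 to 8.01 in 10. C6 read -2.35 to -0.40 in the former and -0.14 to 1.88 in the latter, C8a -3.55 to -0.995 and -0.22 to 0.79, and C8b -2.52 to -0.86 and -0.04 to 0.71. The ranges of these 3 genes did not overlap, but they were picked by their slope on these same arrays, so this adds no support. The share of all genes that separate in this way was not counted. C8g, a chain of the same protein as C8a and C8b, read 0.42 to 1.26 and 0.35 to 1.14. Of the controls, control 1 had a score of -6.60 and controls 2 and 3 had 6.51 and 5.87. Myc tumors 1 to 7 had scores of 6.70, 3.29, 5.56, 4.10, -1.22, -2.55 and 1.64. All but tumors 1 and 3 lay between the 2 ranges of the livers. The score may therefore not stand for sex in the tumors, and the fit takes it as a straight line. With the score in the fit, the differences of Myc tumors from controls were -3.50 (SE 0.57, adjusted p = 5.23e-05) for C6, -3.38 (SE 0.70, adjusted p = 0.000588) for C8a and -2.66 (SE 0.66, adjusted p = 0.00283) for C8b. In Myc off 12 weeks livers against Myc tumors, C8a and C8b were called with the score in the fit, at 2.16 (SE 0.72, adjusted p = 0.0222) and 2.20 (SE 0.68, adjusted p = 0.0138), and not without it.

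**Figure D5:**
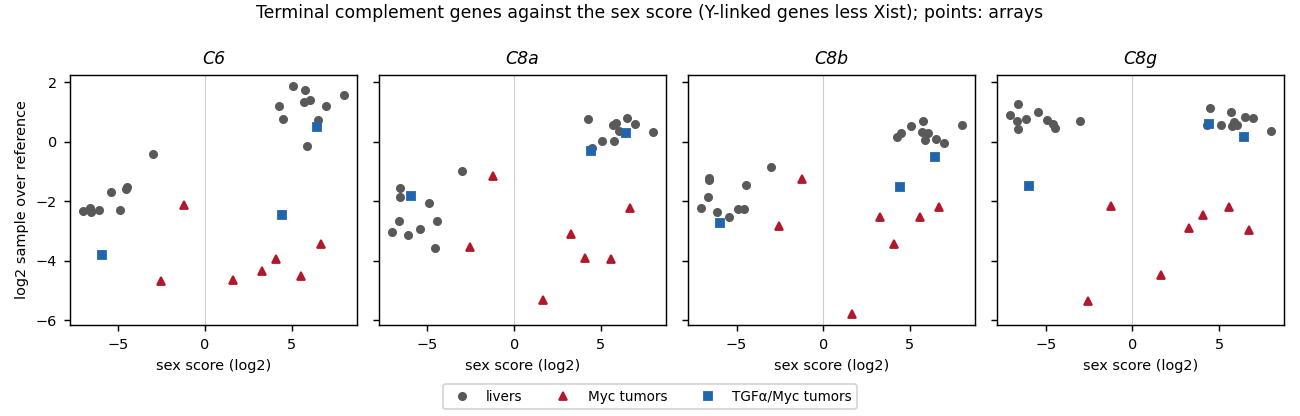
Log2 sample over reference (vertical axis) of C6, C8a, C8b and C8g against the sex score (horizontal axis), with a point for each array of livers (circles), Myc tumors (triangles) and TGFα/Myc tumors (squares). C6 of livers lies at -2.35 to -0.40 below a score of 0 and at -0.14 to 1.88 above it, C8a and C8b separate likewise, and C8g overlaps.

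Hc stood below the reference in nearly every sample, controls included. It encodes C5, which several inbred mouse strains lack. Hc read -2.96, -2.24 and -1.56 in the controls, -4.97 to -2.10 (median -3.90) in the Myc tumors and -3.35, -3.02 and -1.46 in the TGFα/Myc tumors. Of the 17 off livers outside slide 5, 16 read -3.30 to -1.96. The other, TGFα/Myc off 4 weeks replicate 3, read 0.10, was the 1 array of its slide and of its scan day, and had the highest sex score, 8.01. The slope of Hc on the sex score was 0.08 (SE 0.03, adjusted p = 0.315), and Hc read -2.98 to 0.10 in the 10 livers with a score above 0. The part of strain and slide in this value was not tested. The Cy5 reference of Hc was saturated on 2 of 3 controls and 4 of 7 Myc tumors.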

How the data were processed

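Per the file headers, Agilent Feature Extraction made the deposited files, and the authors' values used here are the log10 ratio of red (Cy5, reference) over green (Cy3, sample) and the processed intensity of each channel. The sign of the log10 ratio was turned and the ratio rescaled to log2. The deposited series matrix holds log2 values of red over green, with unknown background, dye and centring steps. Its column medians ran from -0.45 to 0.39, and, with the sign turned, it correlated with the log ratios at 0.35 to 0.96. Between 43.7% and 71.8% of probes were well above background in Cy3.

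Outlier spots (1335 of 1474890) were set missing. Probes well above background on at least 3 arrays (32773 of 41174) were kept, and the brightest probe stood for a gene. Of the 36 genes, 11 had several kept probes. A linear model with 12 coefficients (10 groups and slide 5 apart) was fitted over all 34 arrays with limma 3.58.1 in R 4.3.3, for 15 comparisons with Benjamini-Hochberg adjustment over all genes, and was tested on simulated data. Alternatives covered background, centring, channel, filter, probe, slide, scan day, sex score, replicate block, slide 5 left out (added after seeing the data) and each array left out. The sex score used 6 probes of Y-linked genes and 4 of Xist. The labels give a replicate number and name no pairs. Arrays with the same number deviated together (correlation over 0.1 for each number) in TGFα/Myc off 12 weeks and TGFα off 12 weeks against controls. In these groups and the controls replicate 1 had a negative sex score and replicates 2 and 3 positive ones. The cause of this shared deviation was not tested.

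All 36 genes are named. Up to 3 per role by smallest p in Myc tumors against controls, up to 6 called in TGFα/Myc against Myc tumors and genes that went against the others are given by sample, as are up to 5 other coagulation or complement genes per direction and 2 of each further list. One gene that this rule names is not reported here. The members and lists were chosen with earlier results of these data known.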

Additional observations from a re-analysis of the deposited data

Results flagged for a closer look

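The Fgg value of Myc tumor 4 was -1.31, the lowest of the 7 Myc tumors. The next tumor read -0.63 and the highest -0.23, so the gap to the nearest tumor was 0.626 of the whole range. Of 36 groups tested, 1 for each gene in the Myc tumors, this was the 1 that stood out in this way, and chance alone picks about 1 group in 20. Fgg encodes the gamma chain of fibrinogen. It was saturated in Cy5 on 4 and in Cy3 on 3 of the 7 tumors.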

How the results depend on the processing

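Counts of the 36 genes called moved by over 1.5 times as follows. At unsaturated probes (23 genes) the count was 12 for Myc tumors against controls, 13 and 12 for Myc off 4 and 12 weeks against Myc tumors, and 6 for TGFα/Myc against Myc tumors. With scan day as a block these counts were 1, 4, 0 and 0, and it was 0 for TGFα/Myc tumors against controls and for TGFα/Myc off 12 weeks against TGFα/Myc tumors. Counts also moved within scan day 1 for Myc tumors against controls and for Myc off 4 weeks. They also moved within scan day 7 for TGFα/Myc tumors against controls. In each of these at least 1 side was a single array. For the comparisons on scan day 1, scan day as a block rests on the same arrays. With normexp and loess the count was 22 for TGFα/Myc against Myc tumors, 0 for TGFα/Myc tumors against controls and 0 for TGFα/Myc off 4 weeks. The sample channel alone gave 13 for Myc off 4 weeks and 0 for TGFα/Myc off 4 weeks. The series matrix values gave 3 for TGFα/Myc off 4 weeks and 1 on slide 5. For TGFα/Myc tumors against controls the count was 0 without the filter on dim probes, 0 with 10 title groups and 0 with slide as a random block, and the last also gave 0 for TGFα/Myc off 4 weeks. The sex score as a covariate gave 2 for TGFα/Myc tumors against controls, 3 for TGFα/Myc off 4 weeks and 2 for TGFα/Myc off 12 weeks. With slide 5 left out, added after seeing the data, the count was 2 for TGFα/Myc tumors against controls and 3 for TGFα/Myc off 4 weeks, and each gene called in the 7 comparisons with tumors remained called. With the replicate block the counts were 4, 5 and 5 for TGFα/Myc tumors against controls and TGFα/Myc off 4 and 12 weeks, where the samples share only a number. Where arrays of the same number deviated together, the block gave 0 calls, as without it.

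Leaving out 1 array at a time gave 14 to 26 for Myc tumors against controls, 0 to 3 for TGFα/Myc tumors against controls, 17 to 25 and 14 to 24 for Myc off 4 and 12 weeks against Myc tumors, 0 to 4 for TGFα/Myc off 4 and 0 to 4 for 12 weeks against TGFα/Myc tumors, 5 to 14 for TGFα/Myc against Myc tumors and 0 to 2 on slide 5. One value turned its direction: F10 in Myc off 12 weeks against Myc tumors was -0.0749 with scan day as a block. The cause of these changes was not tested. Saturated reference spots and the 3 arrays per group limit the precision.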
